A study of Mus musculus with 2 samples.

Results

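The genes described here encode the proteins by which astrocytes clear transmitter, buffer potassium, move water and couple to one another. They are 8 of the 32285 gene rows of a single-nucleus RNA sequencing data set of mouse thalamus, and were chosen by name, without reference to a threshold. They are the glutamate transporter genes Slc1a2 and Slc1a3, the glutamine synthetase gene Glul, the GABA transporter gene Slc6a11, the potassium channel gene Kcnj10, the water channel gene Aqp4 and the connexin genes Gja1 and Gjb6. All 8 had a row in both count tables, and each had at least 50 unique molecular identifiers (UMIs, each standing for 1 captured RNA molecule) in astrocytes.

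Astrocytes take up the glutamate and GABA that neurons release, and turn glutamate into glutamine, which neurons use to make transmitter again. They also take up the potassium that active neurons release and pass it, with other small solutes, to their neighbours through gap junctions made of connexins. Water channels are concentrated on the astrocyte processes that wrap blood vessels, the endfeet. In astrocytes that react to injury, some of these genes are known to change their level while filament genes such as Gfap become active.

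The 2 libraries came from C57BL/6J female mice aged 3 months and were collected on day 21 after surgery. Sham mice had a burr hole only, and injured mice underwent cortical ablation injury (CAI), in which sensorimotor cortex was aspirated. Both groups were otherwise unmodified, and the thalamus of the operated side was taken. Each library was 1 pool of nuclei from 4 mice, so no group difference has a replicate check, no p-value can be given, and a difference between the groups cannot be told apart from one between the pools or libraries. The study sequenced these nuclei to ask how thalamic neurons change after the cortex is lost. The tables summed to 137850696 UMIs over 16390 barcodes in sham and to 180106314 UMIs over 21828 barcodes in injury. Filtering left 16373 sham and 21777 injury nuclei, with medians of 7190 and 6810 UMIs per nucleus, and 101 barcode sequences occurred in both libraries. All intervals are at 95% and cover counting error only.

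Astrocytes were 1 cluster of nuclei, named from 12 marker genes that did not include any of the 8 genes, and the 8 genes were also kept out of the genes used for clustering. It held 209 sham nuclei, 1.28% of that library (1.11 to 1.46), and 511 injury nuclei, 2.35% (2.15 to 2.56). These were small and shallow next to the neurons, with median totals of 1892 UMIs in sham and 2549 UMIs in injury. All 12 naming markers differed by less than 0.5 on the log2 scale between the libraries, and their sum was 4586 CPM (UMIs scaled to 1000000 UMIs of the class) in sham and 4607 CPM in injury. Markers of other cells moved little as well: the sum of 5 neuronal markers was 535 and 540 CPM, that of 8 oligodendrocyte markers 388 and 398 CPM, and that of 8 microglial markers 74.9 and 75.0 CPM. The 6 markers of oligodendrocyte precursors stood apart, with 94.8 CPM in sham and 176 CPM in injury, mainly through Tnr with 14 and 127 UMIs. The 5 genes listed for astrocytes of the telencephalon had 17 and 30 UMIs, or 37.5 and 20.8 CPM. Of these UMIs, 16 and 28 were of Mfge8 alone, so the list cannot show whether such astrocytes were present. The 3 genes listed for astrocytes outside the telencephalon, Agt, Itih3 and Sparc, had 359 and 1010 UMIs. Their sum was 791 CPM in sham and 701 CPM in injury.

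In astrocytes, Aqp4 was the member with the largest difference between the libraries and was higher after injury, while Gja1 and Kcnj10 were lower, by amounts that did not differ beyond counting error. The glutamate transporters moved in opposite directions by small amounts, Slc1a2 upward and Slc1a3 downward, and Glul and Gjb6 did not differ beyond counting error over all astrocytes. Together the 8 genes took the same part of astrocyte RNA in both libraries, with 3463 UMIs or 7631 CPM in sham and 11028 UMIs or 7658 CPM in injury.

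Slc1a2 encodes the main glutamate transporter of the forebrain, GLT-1. It lies on chromosome 2, 102658659 to 102790784, plus strand (GRCm38, GENCODE M21, as for all coordinates here), and had 1538 UMIs in sham and 5477 UMIs in injury astrocytes. Its level was 3389 CPM (3222 to 3563) and 3803 CPM (3703 to 3905), so that the injury library was higher by 0.17 on the log2 scale (0.08 to 0.25). Slc1a3 encodes the second astrocytic glutamate transporter, GLAST, and lies on chromosome 15, 8634124 to 8710764, minus strand. It had 656 and 1807 UMIs, or 1446 CPM in sham and 1255 CPM in injury, with a log2 ratio of -0.20 (-0.33 to -0.07). The 2 transporters thus parted, and Slc1a2 had 2.34 UMIs for each UMI of Slc1a3 in sham and 3.03 in injury, a log2 difference of 0.37 (0.22 to 0.52).

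Glul encodes glutamine synthetase, which joins ammonia to the glutamate taken up, and lies on chromosome 1, 153899944 to 153909723, plus strand. It had 119 UMIs or 262 CPM in sham and 413 UMIs or 287 CPM in injury, with a log2 ratio of 0.13 (-0.17 to 0.44), which includes 0. Slc6a11 encodes the GABA transporter GAT-3, which clears GABA into astrocytes, and lies on chromosome 6, 114131241 to 114249952, plus strand. It had 646 and 1741 UMIs, or 1424 CPM in sham and 1209 CPM in injury, with a log2 ratio of -0.24 (-0.37 to -0.10). Slc6a11 and Slc1a3 kept nearly the same ratio to each other in both libraries, at 1.02 and 1.04 UMIs of Slc1a3 for each UMI of Slc6a11.

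Kcnj10 encodes the inward rectifier Kir4.1, which carries most of the resting potassium conductance of astrocytes, and lies on chromosome 1, 172341210 to 172374085, plus strand. It had 146 UMIs or 322 CPM in sham and 350 UMIs or 243 CPM in injury, with a log2 ratio of -0.40 (-0.69 to -0.12). Aqp4 encodes the water channel of astrocyte endfeet and lies on chromosome 18, 15389496 to 15410982, minus strand. It had 93 UMIs or 205 CPM (165 to 251) in sham and 548 UMIs or 381 CPM (349 to 414) in injury. The injury library was higher by 1.86-fold (1.49 to 2.34), or 0.89 on the log2 scale (0.57 to 1.23).

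The connexins did not move alike. Gja1 encodes connexin Cx43 and lies on chromosome 10, 56377330 to 56402513, plus strand. It had 145 UMIs or 319.5 CPM (269.6 to 376) in sham and 316 UMIs or 219 CPM (196 to 245) in injury, with a log2 ratio of -0.54 (-0.83 to -0.25). Gjb6 encodes connexin Cx30 and lies on chromosome 14, 57123303 to 57133611, minus strand. It had 120 UMIs or 264 CPM in sham and 376 UMIs or 261 CPM in injury, with a log2 ratio of -0.02 (-0.32 to 0.29). Gja1 had 1.21 UMIs for each UMI of Gjb6 in sham and 0.840 in injury, a log2 difference of -0.52 (-0.95 to -0.10). In single nuclei at their full depth, both connexins were found in 17.2% of sham (12.4 to 23.0) and 21.1% of injury astrocytes (17.7 to 24.9). Neither was found in 41.1% (34.4 to 48.1) and 35.0% (30.9 to 39.3), so that the shares overlapped within counting error. The injury nuclei were deeper, with a median of 2549 against 1892 UMIs, and these shares were not computed at equal depth.

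**Figure D1:**
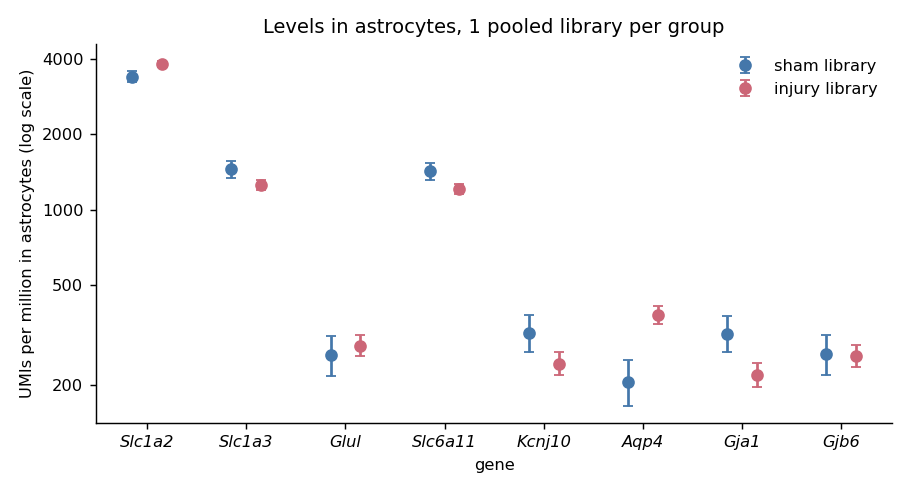
Level in CPM (log scale) in astrocytes for each gene, in the sham library (blue, 209 nuclei) and the injury library (red, 511 nuclei); bars are exact 95% Poisson intervals of the summed UMIs. Aqp4 lies at 205 CPM in sham and 381 CPM in injury, the widest step upward, and the bars of Glul and Gjb6 overlap between the libraries.

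Of the 8 genes, 1 (Aqp4) was higher and 1 (Gja1) lower by at least 0.5 on the log2 scale, and 6 lay between. With every astrocyte thinned to 1000 UMIs, Gja1 was at -0.34 and Kcnj10 at -0.54, so that the 1 lower gene was then Kcnj10. By the mean CPM of single nuclei Gja1 was at -0.46 and 0 genes were lower, and without nuclei with a Gfap UMI 0 were higher and 0 lower. Of all 5925 genes with at least 50 UMIs in astrocytes, 12.3% were higher and 10.1% lower by that much, so the members' counts were near the background. The median log2 ratio of the 8 genes was -0.11, beside -0.02 for all genes. The single genes at the ends of the range stood out more when set beside genes of like abundance, where counting error is alike. They were picked as the extremes of the 8, so an outer rank is no measure of how unusual the members are. Aqp4 was above 97.9% of 824 genes with a similar number of UMIs, Kcnj10 above 5.49% of 1129 and Gja1 above 2.34% of 1238. The libraries' counting intervals did not overlap upward for Aqp4 and Slc1a2 and downward for Gja1, Kcnj10, Slc1a3 and Slc6a11. Of 1784 genes with at least 200 UMIs, 10.0% stood apart upward and 6.56% downward. Intervals narrow with more UMIs, and Slc1a2, Slc1a3 and Slc6a11 had more than most of these genes, so those shares are no like background for them. Among genes of like abundance, Slc1a2 was above 75.7% of 37, Slc1a3 above 18.6% of 145 and Slc6a11 above 17.4% of 149. For genes with at least 500 UMIs, 9.01% were higher and 1.91% lower by 0.5, and Aqp4 was among the genes with that many.

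**Figure D2:**
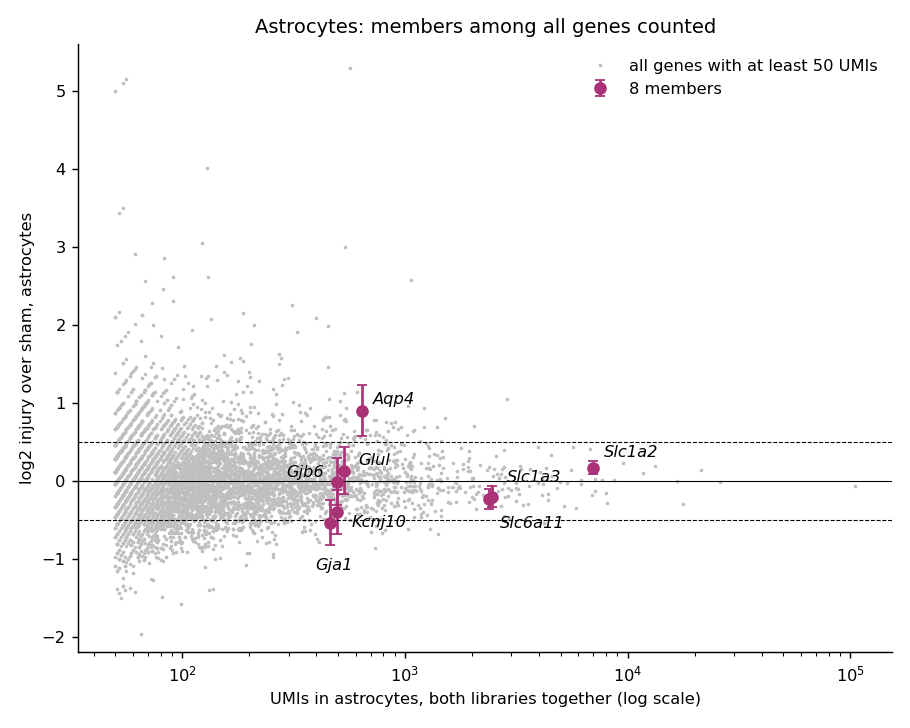
Log2 ratio of injury over sham in astrocytes against the UMIs of both libraries together (log scale), for all 5925 genes with at least 50 UMIs (grey, with a prior of 0.5 UMI) and the 8 genes described (purple, with 95% intervals of counting error). Dashed lines mark 0.5 in each direction. Aqp4 lies above the upper line at 0.89 and Gja1 just below the lower line at -0.54.

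Members were also set against each other within a library. Of the 28 pairs, the widest was Aqp4 against Gja1, with 0.641 UMIs of Aqp4 for each UMI of Gja1 in sham and 1.73 in injury, a log2 difference of 1.43 (0.99 to 1.88). These ratios are taken within a library and do not depend on how the libraries are scaled to each other. Per kilobase of gene, the order of levels in sham astrocytes ran from Glul at 26.8 CPM per kb, with Slc1a2 at 25.7 and Gjb6 at 25.7, through Slc1a3 at 18.9, Gja1 at 12.7 and Slc6a11 at 11.99, to Kcnj10 at 9.79 and Aqp4 at 9.54. The counting intervals of Glul, Slc1a2 and Gjb6 overlapped, and those of Gja1, Slc6a11, Kcnj10 and Aqp4 each overlapped the next, while Slc1a3 stood apart from both sets. Aqp4 was last in sham, and in injury, at 17.7 CPM per kb, only Glul, Slc1a2 and Gjb6 were above it. Slc1a3 was at 16.4 CPM per kb in injury, and its counting interval overlapped that of Aqp4. The length used is that of the whole gene, and whether intronic reads were counted was not stated. Each UMI stands for 1 captured molecule in these 3′ libraries, so the order per kilobase need not be one of expression. By CPM alone, Slc1a2 was highest in sham at 3389 and Aqp4 lowest at 205.

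Aqp4 was unevenly spread over the injury astrocytes, and followed Gfap. Gfap, which encodes the filament protein of reactive astrocytes, had 4 UMIs in sham and 560 UMIs in injury astrocytes, and 104 of the 511 injury nuclei held at least 1 Gfap UMI, against 4 of 209 sham nuclei. This division was made after the values above were seen. The 104 nuclei were 20.4% of injury astrocytes and held 26.5% of their UMIs, but 55.7% of their Aqp4 UMIs. Aqp4 was at 799.8 CPM in them and at 229.5 CPM in the 407 nuclei without a Gfap UMI, a log2 difference of 1.80 (1.55 to 2.05). The nuclei without a Gfap UMI were close to the 205 CPM of sham. With all nuclei that had a Gfap UMI left out of both libraries, the log2 ratio of Aqp4 was 0.14. At least 1 Aqp4 UMI was found in 77.9% of nuclei with Gfap (68.7 to 85.4), in 36.1% of those without (31.4 to 41.0) and in 30.6% of sham astrocytes (24.4 to 37.4), and the highest Aqp4 count in a nucleus was 19, 7 and 5.

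Other members were lower in the nuclei with Gfap. Glul was at 128 CPM with and 344 CPM without a Gfap UMI, a log2 difference of -1.42 (-1.88 to -0.99). Slc6a11 was at 595 and 1430.1 CPM, a difference of -1.26 (-1.47 to -1.06), and Slc1a3 at 729 and 1444 CPM, a difference of -0.99 (-1.18 to -0.80). In the nuclei without Gfap, the last 2 genes had the levels of sham, and their log2 ratios without nuclei that had a Gfap UMI were 0.01 for Slc6a11 and -0.02 for Slc1a3. Glul was above sham there, at 344 against 262 CPM, a log2 ratio of 0.39 (0.09 to 0.70). Kcnj10, Gja1 and Gjb6 were each lower by close to 0.5, with differences of -0.50 (-0.90 to -0.12), -0.50 (-0.92 to -0.10) and -0.51 (-0.89 to -0.14). Slc1a2 did not differ beyond counting error, at 3899 and 3769 CPM, a difference of 0.05 (-0.04 to 0.14).

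Within these nuclei, 1 member was therefore higher and 6 were lower by at least 0.5 on the log2 scale, where of 4877 genes with at least 50 UMIs 15.7% were higher and 13.7% lower. Of the 6, Kcnj10, Gja1 and Gjb6 lay right at the limit, and with nuclei thinned to 1000 UMIs Gja1 and Gjb6 no longer passed it. Gja1 behaved unlike Aqp4 in a second way, since it was also lower than sham in the nuclei without Gfap, with a log2 ratio of -0.45 once nuclei with a Gfap UMI were left out, while Kcnj10 had -0.31 there. Split further by the number of Gfap UMIs, Glul had 298 CPM in 26 nuclei with 1 Gfap UMI, 144 CPM in 31 nuclei with 2 to 4, and 40.7 CPM, from only 8 UMIs, in 47 nuclei with 5 or more. Aqp4 had 606, 497 and 1032 CPM in the same sets.

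The nuclei with Gfap differed in other respects. They were deeper, with a median of 3349 UMIs against 2394 UMIs. After every injury astrocyte was thinned to 1000 UMIs, 68 nuclei kept a Gfap UMI and 414 had none, and the difference was 1.59 (1.11 to 2.06) for Aqp4, -1.69 (-2.29 to -1.14) for Slc6a11, -0.79 (-1.20 to -0.40) for Slc1a3 and -0.02 (-0.22 to 0.17) for Slc1a2. For Glul it was -3.12 (-5.41 to -1.55), from 3 and 159 UMIs. The intervals of the other 3 genes then included 0, with -0.92 (-2.09 to 0.06) for Kcnj10, -0.22 (-1.10 to 0.57) for Gja1 and -0.32 (-1.18 to 0.43) for Gjb6. The 12 naming markers summed to 4607 and 4608 CPM with and without Gfap, though 1 of them, Sox9, was higher and 3, Ntsr2, Fgfr3 and Cldn10, were lower by at least 0.5 with Gfap. Neuronal markers had 475 and 563 CPM, oligodendrocyte markers 320 and 426 CPM, and markers of oligodendrocyte precursors 231 and 156 CPM. The 2 precursor markers with at least 50 UMIs went opposite ways. Tnr had 71 and 56 UMIs, a log2 difference of 1.82, and Megf11 7 and 86 UMIs, a difference of -2.15. The 3 genes of astrocytes outside the telencephalon summed to 325 CPM with and 837 CPM without Gfap, a log2 difference of -1.36 (-1.65 to -1.09), and 2 of the 3 were lower by at least 0.5. Among them Itih3 had -2.39 (-2.91 to -1.91), Agt -0.72 (-1.36 to -0.12) and Sparc -0.42 (-0.86 to 0.0017). Telencephalic markers had 5 and 25 UMIs, of which 5 and 23 were of Mfge8. The part of depth, other cells or region in the difference was not tested beyond the thinning. A nucleus without a Gfap UMI may still hold Gfap RNA that was not captured.

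**Figure D3:**
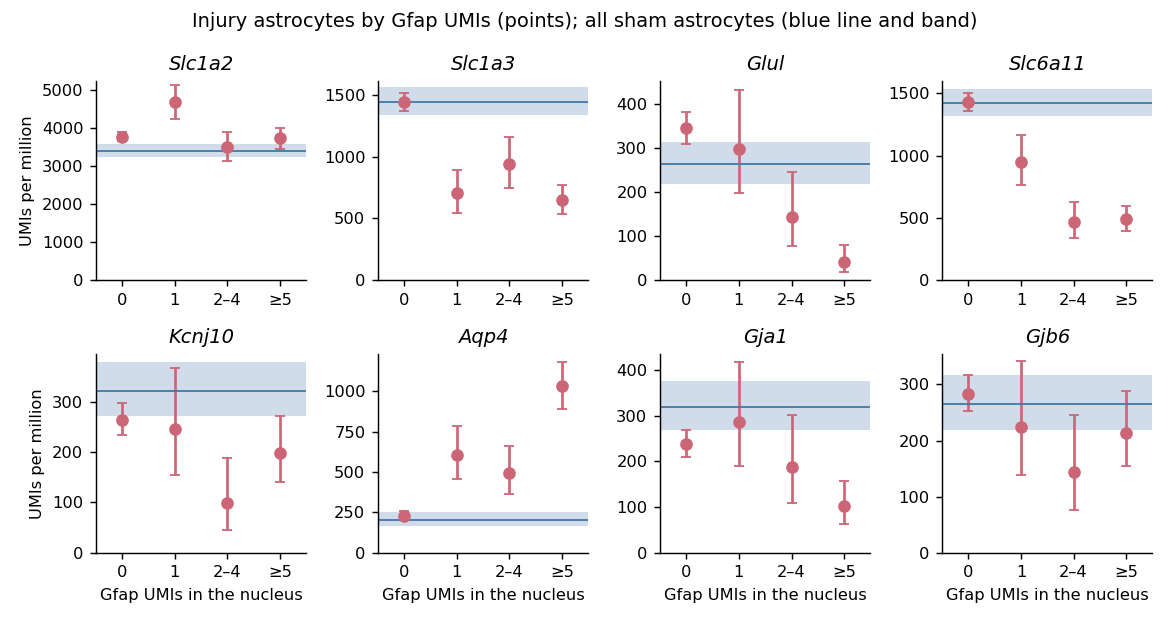
Level in CPM (linear scale from 0) of each gene in injury astrocytes grouped by their number of Gfap UMIs (red points, 407, 26, 31 and 47 nuclei from left to right), with the level of all 209 sham astrocytes (blue line); bars and bands are exact 95% Poisson intervals. Aqp4 reaches 1032 CPM in nuclei with 5 or more Gfap UMIs, Glul drops to 40.7 CPM there, and Slc1a2 stays between 3490.2 and 4669 CPM.

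Related genes of astrocyte function, taken as lists, were mostly between the limits of 0.5 on the log2 scale. Of 8 genes of transmitter uptake and recycling, 0 were higher, 1 was lower and 7 lay between, with a median of -0.16 beside -0.02 for all genes, of which 12.3% were higher and 10.1% lower. The lower one was Slc7a11, which encodes the cystine-glutamate exchanger, with 234 and 470 UMIs and a log2 ratio of -0.66 (-0.89 to -0.43). The neutral amino acid transporter gene Slc7a10 had -0.42 (-0.68 to -0.14) and the glutamate dehydrogenase gene Glud1 -0.31 (-0.52 to -0.10). The GABA transaminase gene Abat had 0.19 (-0.09 to 0.49). Slc6a9, Slc38a3 and Slc1a4 had log2 ratios of -0.23, 0.07 and 0.01, each within counting error of 0.

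Of 8 genes of potassium, ion and pH handling, 0 were higher, 2 lower and 6 between, with a median of -0.17, against the same 12.3% and 10.1% of all genes. Kcnj16, which encodes Kir5.1, a partner of Kir4.1 in mixed channels, had 27 and 61 UMIs and a log2 ratio of -0.49 (-1.17 to 0.22), and counted as lower only with the prior of 0.5 UMI that the list counts use. The chloride channel gene Clcn2 had 23 and 39 UMIs and -0.90 (-1.68 to -0.09). Hepacam, an adhesion gene of astrocyte contacts, had -0.37 (-0.62 to -0.12). The bicarbonate transporter gene Slc4a4, with 1840 and 5863 UMIs, had 0.01 (-0.07 to 0.08). Kcnk1, Atp1b2 and Mlc1 had 0.39, -0.03 and 0.47, all within counting error of 0.

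The 6 genes of the dystrophin complex and matrix that anchor Aqp4 at endfeet all lay between the limits, with a median of -0.15; of all genes, 12.3% were higher and 10.1% lower by that limit, so a list of 6 with no gene past it is near the background. Dmd, which encodes dystrophin, had 771 and 2133 UMIs and a log2 ratio of -0.20 (-0.32 to -0.08), and Dtna, which encodes dystrobrevin alpha, 714 and 2579 UMIs and 0.19 (0.07 to 0.31). Dag1, Utrn and Agrn had 0.42, -0.14 and -0.15, all within counting error of 0. Of 6 other connexin and partner genes, 2 reached 50 UMIs: Tjp1, which encodes the scaffold ZO-1, with 0.31 (0.12 to 0.51) and Gjc3 with -0.17 (-1.02 to 0.75). The connexin gene Gjb2, at 1 and 3 UMIs, was at the limit of what 3 UMIs allow.

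Of 9 genes of reactive astrocytes, 6 reached 50 UMIs, all of them only through the injury library. Their count and median are therefore no measure of the list. Vim, Osmr and Lcn2 did not reach 50 UMIs, with 19, 22 and 1 UMIs in injury. The log2 ratios of those that did were Gfap with 5.46 (4.10 to 7.34), Serpina3n with 3.22 (1.30 to 6.30), C4b with 2.78 (1.37 to 4.68), Aspg with 2.44 (1.02 to 4.36), Stat3 with 1.19 (0.65 to 1.78), and Cd44, which had 0 UMIs in sham and 54 in injury.

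Seen over single nuclei, the members differed in how widely they were found. Slc1a2 had a UMI in 97.6% of sham (94.5 to 99.2) and 98.4% of injury astrocytes, with a median of 5 and 8 UMIs per nucleus. Slc1a3 was found in 85.6% and 82.4%, and Slc6a11 in 85.6% and 84.0%, each with a median of 2 UMIs in both libraries. The other 5 genes were found in fewer than 50% of nuclei, from 30.6% for Aqp4 in sham to 46.2% for Gjb6 in injury. Since injury astrocytes were deeper, each nucleus was also thinned to 1000 UMIs, which left out 15 sham and 29 injury nuclei below that total. Aqp4 was then found in 17.5% of sham (12.5 to 23.6) and 25.3% of injury astrocytes (21.5 to 29.4), Slc6a11 in 70.6% and 61.2%, Kcnj10 in 28.9% and 19.5%, and Gja1 in 25.8% and 20.7%. For each of these genes the intervals of the libraries overlapped, so counting error does not separate the shares. A median of 5 of the 8 genes was found per astrocyte in both libraries before thinning, and 3 after it.

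In glutamatergic neurons, with medians of 7929 and 8102 UMIs, a UMI of Aqp4 was found in 0.835% of sham and 1.54% of injury nuclei, or 0.121% and 0.217% after thinning. Neurons are not known as a main source of Aqp4, and these shares are given as the background to those in astrocytes. Without called doublets, the level of Aqp4 in these neurons was 0.914 and 1.66 CPM, against 1.03 and 1.85 CPM with them; the part of free RNA was not tested. Estimated from neuronal genes, free RNA made up 7.52% of astrocyte UMIs in sham and 5.69% in injury. Slc1a2 had a UMI in 62.4% and 60.2% of glutamatergic neurons, or 19.6% and 18.5% after thinning.

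Slc1a2 was the 1 member with a high level in neurons. Glutamatergic neurons held 26395 sham and 27313 injury UMIs of it, or 269.5 and 259 CPM, a log2 ratio of -0.06 (-0.08 to -0.03), and GABAergic neurons 67.0 and 69.2 CPM. Astrocytes were above glutamatergic neurons by 12.6-fold (11.9 to 13.2) in sham and 14.7-fold (14.3 to 15.1) in injury. Glutamatergic neurons, which were many, held 76.4% of all sham and 59.1% of all injury UMIs of Slc1a2, and astrocytes 4.45% and 11.9%.

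The level of Slc1a2 depended on the type of neuron. The 19 neuron clusters with at least 50 nuclei in each library are the 17 of the classes compared, and clusters 5 and 22, which were kept out of them because 1 marker of another class and 0 of their own stood among their leading genes. Over these 19, Slc1a2 ran from 10.2 to 542 CPM in sham and from 17.2 to 556 CPM in injury, and the 2 libraries ranked the clusters alike, with Pearson r = 0.99 for log2 CPM over 19 clusters that share libraries. The lowest were cluster 8, led by Ano1 and Robo3, with 10.2 and 17.9 CPM, and cluster 14, led by Pde11a and Syt6, with 21.4 and 17.2 CPM. The highest were cluster 13, led by Adgrg6 and Egflam, with 542 and 556 CPM, cluster 15, led by Npsr1 and Col27a1, with 535 and 454 CPM, and cluster 11, led by Adamts9 and Crybg1, with 512 and 530.0 CPM. Of the 19, 5 had a log2 ratio above 0 and 2 below 0 beyond counting error. The lower ones were cluster 20, led by Fgf10 and Adamts19, with -0.25 (-0.41 to -0.09), and cluster 15, with -0.24 (-0.34 to -0.13). The higher ones were clusters 1, 5, 10 and 24, between 0.07 and 0.27, and cluster 8, with 0.82 (0.22 to 1.45) from 31 and 99 UMIs. The range between sham clusters was 53.4-fold. The part of free RNA in the neuronal UMIs was not tested.

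Slc6a11 was the other member with a pattern among neurons, at a lower level. It was highest in cluster 17, led by 1700023F02Rik and Ankfn1, with 25.7 and 30.4 CPM, in GABAergic cluster 0, led by Gad2 and Cdh23, with 20.8 and 24.3 CPM, and in cluster 2, led by Sim1 and Ebf3, with 20.4 and 22.6 CPM. Cluster 1, the largest glutamatergic cluster in sham, had 2.80 and 3.15 CPM. Over the same 19 clusters, r between the libraries was 0.91. For the remaining 6 genes r ran from -0.03 to 0.32.

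**Figure D4:**
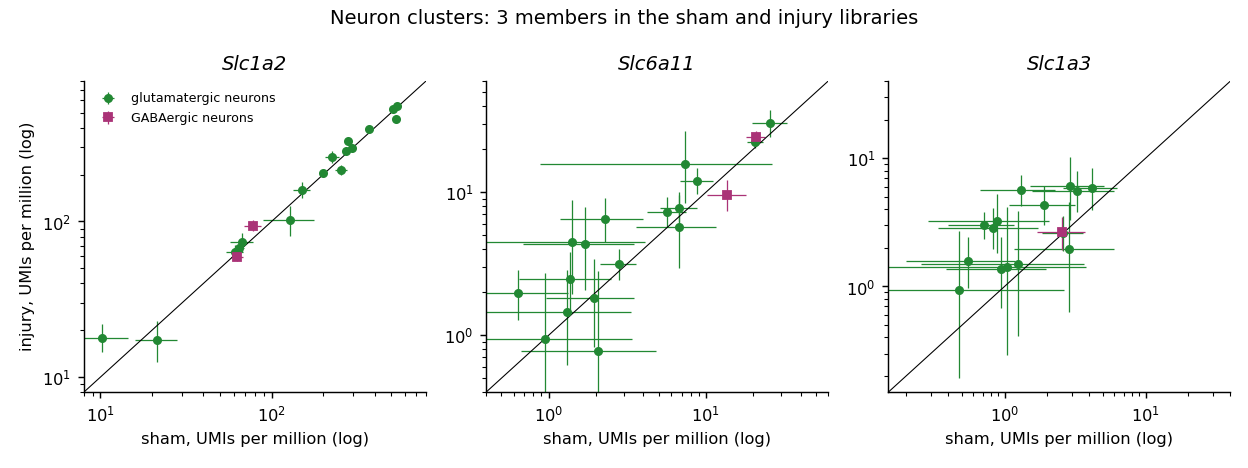
Level in the injury library against the sham library (CPM, log scales) of Slc1a2, Slc6a11 and Slc1a3 in 19 neuron clusters, glutamatergic (green circles, with clusters 5 and 22 of the nuclei kept out of the classes) or GABAergic (purple squares); bars are exact 95% Poisson intervals, the line marks equal levels, and clusters with 0 UMIs in 1 library are left out. Slc1a2 follows the line from 10.2 to 542 CPM in sham, Slc6a11 follows it more loosely, and Slc1a3 stays below 20 CPM with most clusters above the line.

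The other members were at low levels in neurons, and those in glutamatergic neurons were higher in the injury library. In glutamatergic neurons, Slc1a3 had 154 and 345 UMIs, or 1.57 and 3.27 CPM, with a log2 ratio of 1.06 (0.78 to 1.34). Kcnj10 had 0.797 and 1.68 CPM, with 1.08 (0.68 to 1.48), and Aqp4 1.03 and 1.85 CPM, with 0.84 (0.49 to 1.20). Gja1 had 0.562 and 1.17 CPM, with 1.05 (0.59 to 1.54), and Gjb6 0.276 and 0.702 CPM, with 1.35 (0.70 to 2.04). Glul and Slc6a11 were higher by less, with 0.33 (0.17 to 0.49) and 0.31 (0.16 to 0.47). Thus 5 of the 8 genes were higher by at least 0.5, where 5.4% of 19227 genes in these neurons were, and 0 were lower, where 3.11% of genes were.

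Slc1a3, Kcnj10 and Gja1 were therefore lower in injury astrocytes and higher in injury glutamatergic neurons, as was Slc6a11 with called doublets kept. Several measures are set beside these neuronal levels, and they did not move alike for all genes. Astrocytes took 0.330% of sham and 0.805% of injury UMIs of the whole library, a log2 ratio of 1.28. Without nuclei called doublets, the log2 ratios in glutamatergic neurons were 0.60 (0.21 to 0.99) for Slc1a3, 0.72 (0.18 to 1.27) for Kcnj10, 0.87 (0.32 to 1.43) for Gja1, 1.54 (0.70 to 2.45) for Gjb6 and 0.86 (0.45 to 1.27) for Aqp4. The neuronal level as a share of the astrocyte level was 0.109% for Slc1a3, 0.104% for Gjb6, 0.176% for Gja1, 0.248% for Kcnj10, 0.503% for Aqp4, 0.435% for Slc6a11, 2.08% for Glul and 7.95% for Slc1a2 in sham. In injury it was 0.261%, 0.269%, 0.532%, 0.691%, 0.486%, 0.636%, 2.40% and 6.81% in the same order. The part of free astrocyte RNA in these neuronal levels was not tested.

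GABAergic neurons gave fewer UMIs. Slc1a3 had 1.87 and 3.64 CPM, with a log2 ratio of 0.96 (0.32 to 1.64). Without called doublets this was 0.44 (-0.26 to 1.17), and by cluster it was 0.04 (-0.67 to 0.78) in cluster 0, with 27 and 47 UMIs, while cluster 10 had 0 UMIs in sham and 43 in injury. Gja1 had 0.277 and 1.21 CPM from 4 and 30 UMIs, with 2.13 (0.62 to 4.10). Slc6a11 was at 18.9 and 20.2 CPM, with 0.10 (-0.12 to 0.32). Of all 15536 genes, 5.99% were higher and 3.51% lower by at least 0.5 in these neurons.

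Among glia, Glul and Kcnj10 were shared with oligodendrocytes, while Aqp4 and the connexins were not. In 990 sham and 2303 injury oligodendrocytes, Glul was at 231 and 239 CPM, or 88.2% and 83.4% of the astrocyte level, and in sham the astrocyte level was 1.13-fold that of oligodendrocytes (0.916 to 1.40), which this depth cannot tell from equal. In injury it was 1.20-fold (1.07 to 1.34). Kcnj10 was at 105 and 138 CPM in oligodendrocytes, with a log2 ratio of 0.39 (0.15 to 0.64), the opposite direction to astrocytes, and Slc1a3 at 142 and 171 CPM, with 0.27 (0.06 to 0.48). Slc1a2 was at 25.3 and 45.1 CPM there, with 0.84 (0.35 to 1.35). Of 9448 genes in oligodendrocytes, 6.4% were higher by at least 0.5. Aqp4, Gja1 and Gjb6 had at most 7.05 CPM there. In 144 sham and 220 injury oligodendrocyte precursors, Slc1a2 was at 259 and 306 CPM, close to the level of glutamatergic neurons, and Slc1a3 at 90.0 and 83.2 CPM. The 32 sham and 168 injury microglia, of which 16 and 22 were called doublets, had 166 and 170 CPM of Slc1a3 from 12 and 58 UMIs.

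**Figure D5:**
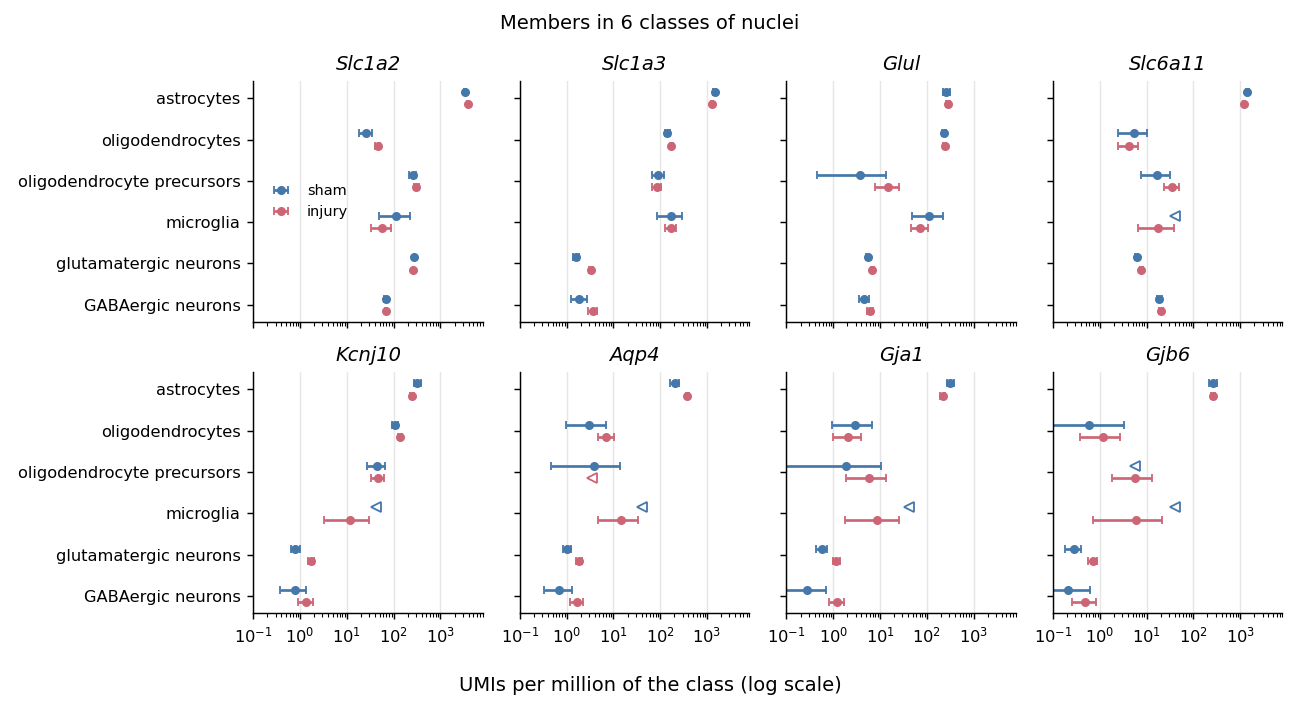
Level in CPM (log scale) of each gene in 6 classes of nuclei in the sham (blue) and injury (red) libraries, with exact 95% Poisson intervals; open triangles stand at the floor of 3 UMIs where a class had 0. Every point is highest in astrocytes, though for Glul in sham the astrocyte interval overlaps that of oligodendrocytes and, barely, that of microglia. Glul and Kcnj10 come closest in oligodendrocytes, and Slc1a2 alone is above 60 CPM in neurons.

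Counted over whole libraries, Gjb6 had the largest share of its UMIs in astrocytes in both libraries, followed in sham by Gja1 and Slc1a3 and in injury by Aqp4 and Gja1. Astrocytes held 66.3% of all sham and 62.5% of all injury UMIs of Gjb6, 59.9% and 54.0% of those of Gja1, and 51.8% and 48.8% of those of Slc1a3. For Aqp4 the share was 39.2% in sham and 55.6% in injury, beside 42.6% and 19.8% in glutamatergic neurons, which had by far the most UMIs of any class. Kcnj10 lay more in oligodendrocytes, with 37.0% and 43.1%, than in astrocytes, with 30.4% and 25.8%, and so did Glul, with 31.1% and 37.1% against 9.41% and 15.1%. For Kcnj10 in sham, the intervals overlapped, at 32.7% to 41.5% and 26.3% to 34.7%, so the order was beyond counting error only in injury. Glutamatergic neurons held 42.3% and 26.4% of the UMIs of Glul. Without regard to cell class, Aqp4 was at 1.72 CPM in the sham and 5.50 CPM in the injury library, a log2 ratio of 1.67 (1.47 to 1.88), and Gja1 at 1.76 and 3.27 CPM, a ratio of 0.89 (0.67 to 1.11). The direction for Gja1 thus differed between the whole library and the astrocytes in it, whose share of nuclei was larger after injury.

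The genes whose levels followed the mean of the 8 most closely over 12 points, 6 classes in each of the 2 libraries, were Gm10561 with Pearson r = 0.99, Tprkb and Itih3 with 0.98, and Gm6145 and Nacc2 with 0.97. The points of 1 library share its depth and free RNA, so these values are a description. Of these, Itih3, which encodes a chain of an inter-alpha-trypsin inhibitor, had 236 and 576 UMIs in astrocytes with a log2 ratio of -0.38 (-0.60 to -0.15), and the other 4 differed by less than counting error.

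For 5 members, another annotated gene lies within or across the same stretch of the genome. The antisense gene AC133525.2 overlaps Aqp4 and had 0 UMIs in sham and 22 in injury astrocytes, and Gm13872 overlaps Slc1a2 on the other strand with 31 and 79 UMIs. Gm37310, Gm8132, and Teddm2 with Mir8114 overlap Slc1a3, Slc6a11 and Glul. Whether counting used the strand was not stated, so reads of these stretches may be shared. Kcnj10, Gja1 and Gjb6 had no overlapping gene.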

How the data were processed

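Nuclei were sorted from thalamus pooled over 4 mice per group and sequenced as 10x 3′ libraries. The authors made the deposited UMI count tables with Cell Ranger 6.0.2 against GRCm38; annotation release, use of intronic reads and strand were not given in the sources used here. Counts were used as deposited, and 32235 of 32285 rows took a symbol from GENCODE M21. Nuclei with over 2% mitochondrial UMIs, under 200 or over 7500 genes were left out, after the study's filter.

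Libraries were integrated and clustered in Seurat 5.3.0 (30 components, resolution 0.5), with the members and function lists kept out of the features. Clusters were named from marker lists and names mean "like" that class; a difference from the study may come from these rebuilt names. Doublets were kept: Scrublet scores (scanpy 1.11.5) marked 2179 sham and 3871 injury nuclei at an assumed 0.8% per 1000 nuclei, not at a gap in the scores. Clusters mostly of called doublets (4.64% of sham and 5.88% of injury nuclei), an unnamed cluster of few UMIs (1.57% and 1.64%) and neuron clusters kept out of the classes (6.63% and 10.1%) entered no class.

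UMIs were summed per class and library and scaled to the class total. Ratios are injury over sham, with exact Poisson or binomial (Clopper-Pearson) intervals, and an exact conditional interval for pairs of genes. A prior of 0.5 UMI entered list counts and medians only. The ratios and their intervals were tested on simulated Poisson counts. These leave out the spread between nuclei and mice, so the test checks the calculation only. The named genes were the 8 members, genes of the function lists with at least 50 UMIs (some of these are counted in their list but not reported here), and the 5 genes most like the members by r of log2(CPM + 1). The members and lists were chosen with earlier results of these data known, and the division by Gfap was added after values were seen. Alternatives were scaling, weighting, doublets, clustering, thinning, free RNA and shared barcodes.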

Additional observations from a re-analysis of the deposited data

Results flagged for a closer look

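For 5 members, the intervals of the injury-over-sham ratio lay on opposite sides of 0 in astrocytes and in glutamatergic neurons. With 1 library per group, this difference between the cell classes was not tested. Slc1a3 had a log2 ratio of -0.20 in astrocytes and 1.06 in neurons, a difference of 1.26. Kcnj10 had -0.40 and 1.08, a difference of 1.48, and Gja1 had -0.54 and 1.05, a difference of 1.60. Slc6a11 had -0.24 and 0.31, a difference of 0.55. Slc1a2, which alone is high in neurons, had 0.17 and -0.06, a difference of -0.22. The neuronal sign for Slc1a2 held for the class sum and not for most neuron clusters. Of the 19 clusters, 14 had a log2 ratio above 0, with a median of 0.05. The clusters made up different parts of the neurons in each library, and the part of this in the class value was not tested. Neuronal levels of the first 4 genes were at most 7.69 CPM. Without called doublets, Slc6a11 was within counting error of 0 in these neurons, with 0.13 (-0.04 to 0.31).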

How the results depend on the processing

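The direction of the log2 ratio in astrocytes stayed the same for Slc1a2, Slc1a3, Glul, Kcnj10, Aqp4 and Gja1 under every alternative run, while Gjb6, near 0, took either sign. The ranges were 0.12 to 0.20 for Slc1a2, -0.24 to -0.02 for Slc1a3, 0.10 to 0.37 for Glul, -0.28 to 0.01 for Slc6a11, -0.54 to -0.31 for Kcnj10, 0.14 to 0.93 for Aqp4, -0.61 to -0.34 for Gja1 and -0.08 to 0.15 for Gjb6. Leaving out nuclei with a Gfap UMI, an alternative chosen after the data were seen, moved Aqp4 to 0.14 and Slc1a3 to -0.0174, reversed Slc6a11 to 0.00715, took Glul from 0.13 to 0.37, turned the median of the 8 genes to 0.07, and left 0 genes higher and 0 lower by 0.5. The mean CPM of single nuclei moved Slc1a3 to -0.0373 and left 0 genes lower; at a fold of 1.0, 0 were higher and 0 lower. Thinned to 1000 UMIs, Gja1 was at -0.34 and Kcnj10 at -0.54, so that the 1 gene lower by 0.5 was Kcnj10 in place of Gja1. The cause was not tested where the setting itself does not show it.

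With called doublets kept and the mixed astrocyte-neuron cluster added, astrocytes were 2.77% of injury nuclei. Without called doublets, they were 2.74%. Astrocytes then held, in sham, 5.37% of UMIs of Slc1a2, 59.9% of Slc1a3, 43.1% of Slc6a11, 46.6% of Aqp4, 69.2% of Gja1 and 79.6% of Gjb6, and in injury 15.2% of Slc1a2, 60.8% of Slc1a3, 17.9% of Glul, 58.7% of Slc6a11, 31.6% of Kcnj10, 69.1% of Aqp4, 67.8% of Gja1 and 80.2% of Gjb6. Their level over glutamatergic neurons was, on the log2 scale, 10.4 in sham and 9.63 in injury for Slc1a3, 9.21 and 8.14 for Kcnj10, and in injury 5.62 for Glul, 7.58 for Slc6a11, 7.92 for Gja1 and 8.96 for Gjb6. Thinned to 1000 UMIs, the share of astrocytes with a UMI was 90.7% in sham and 92.7% in injury for Slc1a2, 63.9% and 60.2% for Slc1a3, 26.8% and 24.9% for Glul, 70.6% and 61.2% for Slc6a11, 28.9% and 19.5% for Kcnj10, 17.5% and 25.3% for Aqp4, 25.8% and 20.7% for Gja1, and 23.7% and 26.8% for Gjb6. For every gene the counting intervals of these shares overlapped between the libraries.

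No paired analysis was possible because 1 pooled library stood for each condition. Of all genes, 20.9% were higher and 25.2% lower by 0.5 with no filter, 16.3% lower with at least 20 UMIs and 3.92% lower with at least 200. Sham astrocytes gave 93 to 146 UMIs for Glul, Kcnj10, Aqp4, Gja1 and Gjb6, so smaller differences in these were not detectable, and spread between mice could not be measured.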

Other observations

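A small cluster of 24 sham and 93 injury nuclei, all called doublets, held astrocytic and neuronal RNA together. The share of all genes that differed there was not computed. Aqp4 had 9 UMIs or 38.1 CPM in sham and 82 UMIs or 82.6 CPM in injury, a log2 ratio of 1.12 (0.12 to 2.29), Slc1a2 had 0.40 (0.20 to 0.61) and Slc1a3, which was lower in injury astrocytes, 0.41 (0.0018 to 0.85). Gja1 had 55.0 and 50.3 CPM there, with -0.13 (-1.03 to 0.88), and Kcnj10 84.7 and 71.5 CPM, with -0.24 (-0.98 to 0.55).

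Neuron clusters that were nearly or wholly of the injury library entered no comparison. The libraries thus did not hold the same neuron types in like numbers. Whether both dissections took the same tissue was not tested. The part of such a difference in the astrocyte ratios was not tested either. Cluster 28, led by Glis3 and Maml2 with 0 sham and 221 injury nuclei, had 42.4 CPM of Slc1a3 from 61 UMIs, above the highest level in the 19 clusters compared, 15.8 CPM. Its Aqp4 was at 7.64 CPM from 11 UMIs and its Slc1a2 at 138 CPM. Cluster 25, led by 4921539H07Rik and 1700007F19Rik and with Neurod6 among its leading genes, had 0 sham and 283 injury nuclei. Its Slc1a3 was at 0.837 CPM and its Slc1a2 at 227 CPM. GABAergic cluster 21, led by Myo5b and Ano2 with 4 sham and 440 injury nuclei, had 11.4 CPM of Slc1a3, 25.2 CPM of Slc6a11 and 186 CPM of Slc1a2, the last above both GABAergic clusters compared.

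Single nuclei weighed on the Aqp4 sum in both libraries. The 10 nuclei with the most Aqp4 UMIs held 31.2% of them in the 209 sham and 22.3% in the 511 injury astrocytes. A set of 10 is a larger part of the sham nuclei, so these shares cannot be compared between the libraries. In sham, Gjb6 with 29.2%, Kcnj10 with 28.1% and Gja1 with 27.6% had similar shares, while in injury the shares of Kcnj10, Gja1 and Gjb6 were 14.9%, 11.1% and 10.9%.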
